A study of Mus musculus with 9 samples.

Results

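The genes described here are 10 transcripts used to mark macrophages and their inflammatory states: Adgre1, Csf1r, Lyz2, Lgals3, Fcgr1, Fcgr3, Tyrobp, Fcer1g, Trem2 and Gpnmb. The rule lists them by name and uses no measured value, though it was drawn up with earlier results of these data known. Each was found in the table by its Ensembl identifier, 10 of 33293 identifiers in all. Of the 10, 9 had at least 1 FPKM (fragments or reads per kilobase of exon, scaled to library depth) in at least 4 libraries and were among the 13383 genes tested. Trem2 was below that filter. The RNA was that of whole aorta from males, 7 to 8 weeks old and fed normal chow. The 5 WT libraries came from wild-type C57BL/6J mice and the 4 Apoe_KO libraries from mice lacking Apoe, which encodes a lipid carrier of plasma lipoproteins that macrophages also secrete. The labels name neither the Apoe allele nor the strain background of the knockout, nor whether every library is a different animal, so p-values cover the spread among these libraries alone. The comparison asks which macrophage transcripts differ between aortas of both genotypes before any dietary challenge.

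Macrophages of the normal artery lie mainly in the adventitia, are maintained through the receptor Csf1r, and take up antibody-coated material, dying cells and lipid. Many of their surface receptors have no signalling tail of their own and depend on small adaptors, Tyrobp or Fcer1g, whose cytoplasmic motifs (immunoreceptor tyrosine-based activation motifs, ITAMs) recruit the kinase Syk. In atherosclerotic lesions, lipid-laden macrophages are known for high Trem2, Gpnmb, Lgals3 and Spp1.

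Libraries held 17.0 to 19.8 M reads or fragments, and for a 2 kb gene 1 read stood for 0.0253 to 0.0294 FPKM. Apoe followed the labels in every library, with means of 563 ± 54.0 FPKM over the WT group (SD, n = 5) and 6.22 ± 0.401 FPKM over Apoe_KO (SD, n = 4). The summed level of 8 smooth muscle genes was 4845 to 5758 FPKM in WT and 4976 to 6289 FPKM in Apoe_KO, and 8 adipocyte genes summed to 3559 to 5477 FPKM and 2344 to 4676 FPKM, so that transcripts of fat were present beside those of vessel wall. A pair of libraries stood apart. The 8 B and plasma cell genes summed to 495 FPKM in WT 2 and 413 FPKM in Apoe_KO 4, against 15.5 to 40.7 FPKM in the other 7 libraries, and the 8 T cell genes to 68.6 and 65.2 FPKM against 3.40 to 14.2 FPKM. None of these genes was listed at 0 in all libraries. The part of these transcripts in the marker values below was not tested, and each called gene named below is given with and without both libraries.

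The sequences that bear on the Fc receptors are shown first, since Fcgr3 was the only marker called and its transcript is partly identical to that of an inhibitory neighbour. The first 3 sequences are the 250 bases before a transcription start (RefSeq, GRCm38.p6), for the low-affinity activating IgG receptor Fcgr3 (chr1:171059404-171059653, minus strand), the high-affinity IgG receptor Fcgr1 (chr3:96293970-96294219, minus strand) and the adaptor both use, Fcer1g (chr1:171234350-171234599, minus strand). Capitals mark the PU box, the motif read by the myeloid factor PU.1, searched as GAGGAA and as TTCCTC on the other strand.
Fcgr3: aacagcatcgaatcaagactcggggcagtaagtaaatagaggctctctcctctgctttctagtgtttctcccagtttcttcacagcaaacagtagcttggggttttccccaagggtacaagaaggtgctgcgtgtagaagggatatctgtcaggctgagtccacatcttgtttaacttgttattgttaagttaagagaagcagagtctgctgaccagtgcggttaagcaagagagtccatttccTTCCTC
Fcgr1: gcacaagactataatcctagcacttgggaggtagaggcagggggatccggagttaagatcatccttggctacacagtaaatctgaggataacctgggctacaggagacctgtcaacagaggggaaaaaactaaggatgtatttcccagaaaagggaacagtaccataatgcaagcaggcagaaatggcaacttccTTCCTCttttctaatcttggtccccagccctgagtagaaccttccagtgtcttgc
Fcer1g: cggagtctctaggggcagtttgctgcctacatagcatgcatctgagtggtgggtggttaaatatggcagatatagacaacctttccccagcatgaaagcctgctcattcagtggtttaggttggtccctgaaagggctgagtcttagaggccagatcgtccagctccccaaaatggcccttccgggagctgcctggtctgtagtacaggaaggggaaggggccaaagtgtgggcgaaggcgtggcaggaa
The PU box ended at the start site of Fcgr3 (first base 6 bases before the start) and began 55 bases before that of Fcgr1. RefSeq lists another Fcgr3 start 9 bases downstream, from which the same motif begins 15 bases before. Windows of 250 bases before to 50 after the start were searched for 7 markers. Csf1r was left out of this search, and Adgre1 and Tyrobp had no usable window, so the counts do not cover these 3. The motif was in 3 of the 7 (Fcgr3, Fcgr1 and Trem2, there 40 bases before the start) and in 28.3% of all 32851 windows. The core motif of MITF and the TFE factors (TCACGTG, or CACGTGA on the other strand), factors known to drive Gpnmb, was in 0 of the 7 windows and in 3.77% of all. A match describes letters only.

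The last sequence is the longest stretch of the Fcgr3 coding sequence found unchanged in Fcgr2b, the inhibitory IgG receptor. It covers coding bases 263 to 391 of 801.
Fcgr3 and Fcgr2b: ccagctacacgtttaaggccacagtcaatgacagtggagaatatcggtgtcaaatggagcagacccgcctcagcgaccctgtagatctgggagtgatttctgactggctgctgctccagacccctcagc
Of the 1733 windows of 50 bases in Fcgr3 transcripts, 166 (9.58%) were also in Fcgr2b. In Lyz2, 195 of 1267 windows (15.4%) were also in Lyz1, and the other 8 markers shared none with another gene. How reads in these stretches were assigned is unknown, so the levels of Fcgr3 and Lyz2 are uncertain to that extent.

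Of the 9 tested markers, 1 was called higher in Apoe_KO aorta and 0 were called lower (limma, Benjamini-Hochberg adjusted p at or below 0.05 over all genes tested). At an unadjusted limma p below 0.05 the markers also counted 1, and 3289 of all genes did. Of all 13383 tested genes 3.43% were called higher, 3.92% lower and 7.35% in either direction. The gene was Fcgr3, at a mean ratio of 1.58. The log2 fold changes of the 9, on the log2(FPKM + 1) scale, had a median of 0.18 against -0.069 over all tested genes. All 9 were above 0, as were 36.1% of all tested genes, and without Apoe_KO 4 this held for 5 of 9, with a median of 0.049. Among bulk samples, a change in the number of cells and a change in the RNA of each cell cannot be told apart.

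**Figure D1:**
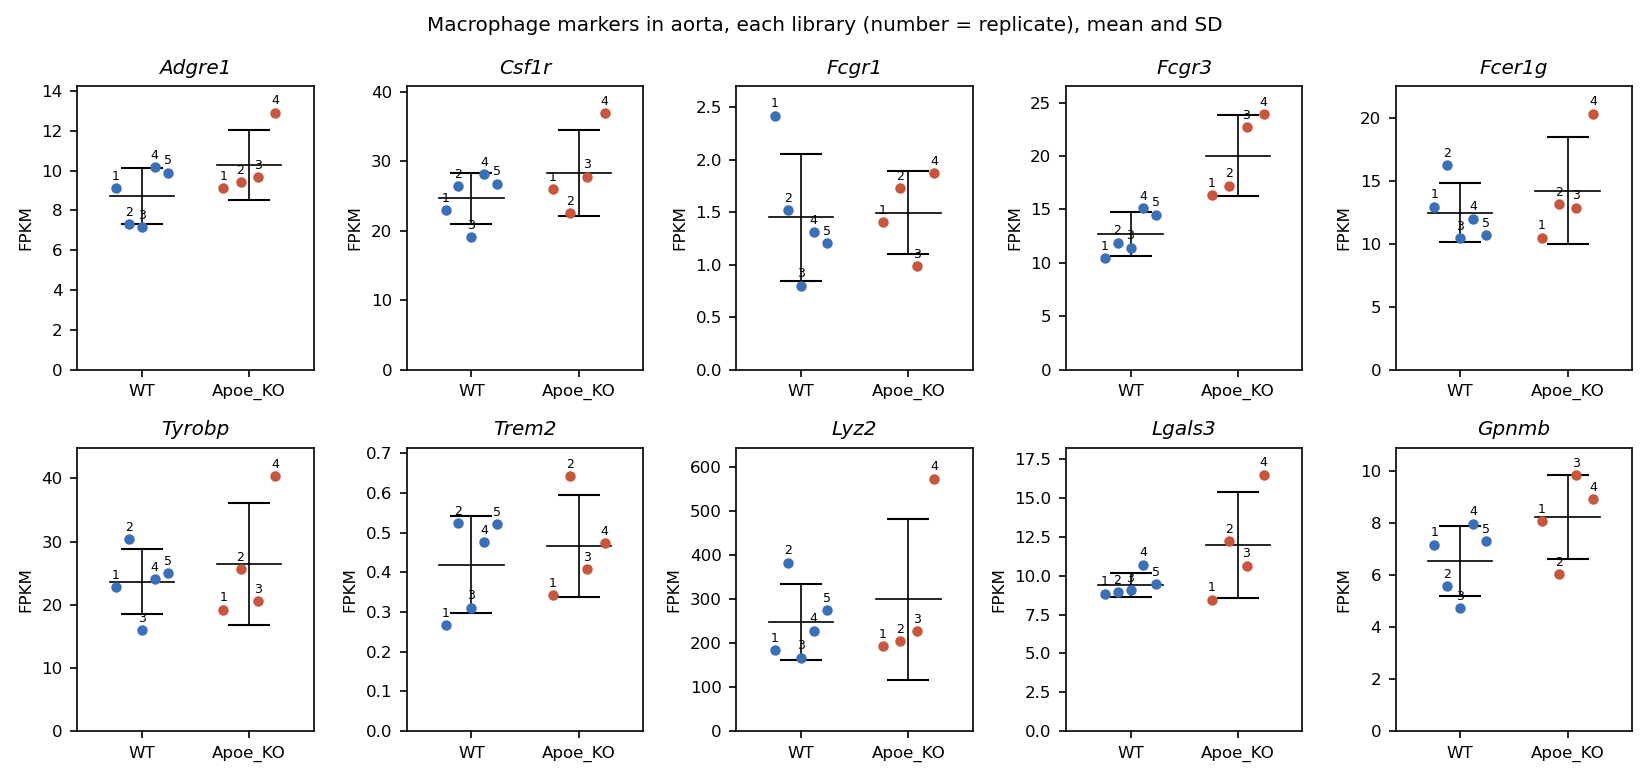
FPKM of each marker in each library (points, numbered by replicate), with the mean and SD (lines) of 5 WT and 4 Apoe_KO libraries, on linear axes from 0. The groups are separate for Fcgr3 only, and Apoe_KO 4 is the highest library for 7 of the 10 markers.

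Adgre1 (chromosome 17, 57358691 to 57483527, plus strand, GRCm38) encodes an adhesion receptor that is the usual surface marker of mouse macrophages. Adgre1 was at 9.12, 7.30, 7.16, 10.2 and 9.90 FPKM in WT 1 to 5, and at 9.12, 9.43, 9.69 and 12.9 FPKM in Apoe_KO 1 to 4. The first 3 knockout libraries lay inside the WT range and Apoe_KO 4 above it. For Adgre1 the log2 fold change was 0.21 (SE 0.13, limma adjusted p = 0.344), with a 95% interval of -0.074 to 0.50, and the two-sided exact permutation p over 126 splits was 0.254.

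Csf1r (chromosome 18, 61100598 to 61132149, plus strand) encodes the receptor tyrosine kinase for the growth factors CSF1 and IL34. Its gene overlaps Hmgxb3 on the other strand, and whether counting used the strand is not given. Csf1r was at 23.0, 26.4, 19.1, 28.1 and 26.8 FPKM in WT 1 to 5, and at 26.0, 22.5, 27.8 and 36.9 FPKM in Apoe_KO 1 to 4. Again a single knockout library, Apoe_KO 4, exceeded every WT library. For Csf1r the log2 fold change was 0.18 (SE 0.15, limma adjusted p = 0.493, 95% interval -0.15 to 0.51). Of its ligands, Csf1 had 18.60 ± 2.001 FPKM in the WT group (SD, n = 5) and 22.1 ± 3.75 FPKM in Apoe_KO (SD, n = 4), with a limma adjusted p of 0.252. Il34 was at 4.61 ± 0.395 and 3.71 ± 1.17 FPKM, with a limma adjusted p of 0.257. Neither ligand passed the test. Of the 12 tested genes of the list of the CSF1 axis and myeloid transcription factors (14 genes, median log2 fold change 0.026), 1 was called higher and 1 lower. Mitf, a factor for lysosomal and melanocyte genes, rose from 2.89 ± 0.530 to 4.61 ± 0.579 FPKM (limma adjusted p = 0.0238). Cebpa, a myeloid and adipocyte factor, fell from 95.2 ± 19.1 to 61.7 ± 7.67 FPKM (limma adjusted p = 0.0381). The call was lost in 5 of 9 fits that left out 1 library for Mitf (WT 2, WT 4, Apoe_KO 1, 3 or 4; adjusted p up to 0.0815) and in 6 for Cebpa (WT 3, 4 or 5, Apoe_KO 1, 3 or 4; up to 0.110). Neither was called without WT 2 and Apoe_KO 4 together (limma adjusted p = 0.0956 for Mitf and 0.0576 for Cebpa). The 8 adipocyte genes gave 0 higher and 2 lower calls, Lep (log2 fold change -1.74) and Plin1 (-0.56), with a median of -0.42. Leaving out 1 library ended the call of Plin1 in 8 of 9 fits (all but the one without Apoe_KO 2; adjusted p up to 0.129) and that of Lep in 4 (WT 1, 2 or 4 or Apoe_KO 3; up to 0.0863). The limma adjusted p without WT 2 and Apoe_KO 4 together was 0.0852 for Plin1 and 0.0393 for Lep. The part of fat in the Cebpa value was not tested.

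Fcgr3 (chromosome 1, 171051174 to 171064935, minus strand) encodes the low-affinity activating receptor for IgG. Fcgr3 was at 10.4, 11.9, 11.4, 15.1 and 14.5 FPKM in WT 1 to 5, and at 16.3, 17.2, 22.7 and 23.9 FPKM in Apoe_KO 1 to 4. Every knockout library was above every WT library, although Apoe_KO 1 was only just above WT 4. The group means were 12.7 ± 2.05 FPKM (SD, n = 5) and 20.04 ± 3.81 FPKM (SD, n = 4), from 351 to 762 reads per library. For Fcgr3 the log2 fold change was 0.62 (SE 0.14, limma adjusted p = 0.0294), with a 95% interval of 0.30 to 0.93. The two-sided exact permutation test gave p = 0.0159, the smallest that 126 splits allow, and 22.9% of all tested genes had a permutation p below 0.05. Groups were separate for 1 of the 9 tested markers, with Apoe_KO higher, and over all tested genes for 4.9% with Apoe_KO higher, 7.48% with Apoe_KO lower and 12.4% in all. The adjusted p was above 0.05 when any of 5 libraries was left out, at 0.0608 without WT 1, 0.0677 without WT 2, 0.0576 without WT 3, 0.0948 without Apoe_KO 3 and 0.0681 without Apoe_KO 4. The log2 fold change stayed between 0.53 and 0.70 over all 9 such fits. Without WT 2 and Apoe_KO 4 together it was 0.51 (limma adjusted p = 0.119).

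Fcgr1 (chromosome 3, 96282909 to 96293969, minus strand), the high-affinity receptor for IgG, was near the filter, with 39 to 124 reads per library. Fcgr1 was at 2.42, 1.52, 0.7995, 1.31 and 1.20 FPKM in WT 1 to 5, and at 1.40, 1.73, 0.984 and 1.87 FPKM in Apoe_KO 1 to 4. All knockout libraries lay within the WT range, and the highest value was in WT 1. For Fcgr1 the log2 fold change was 0.045 (SE 0.18, limma adjusted p = 0.903, 95% interval -0.37 to 0.45).

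Fcer1g (chromosome 1, 171229572 to 171234365, minus strand) encodes the ITAM adaptor that Fcgr1 and Fcgr3 need for assembly and signalling, and lies 165 kb from Fcgr3. Fcer1g was at 12.97, 16.3, 10.4, 12.02 and 10.7 FPKM in WT 1 to 5, and at 10.5, 13.2, 12.9 and 20.4 FPKM in Apoe_KO 1 to 4. Only Apoe_KO 4 exceeded the WT range, and the highest WT library was WT 2. For Fcer1g the log2 fold change was 0.15 (SE 0.18, limma adjusted p = 0.639, 95% interval -0.25 to 0.56), and -0.022 without Apoe_KO 4. The ratio of Fcgr3 to Fcer1g FPKM was 1.05 ± 0.275 in WT (SD, n = 5) and 1.45 ± 0.262 in Apoe_KO (SD, n = 4), with overlapping groups. The ratio of Fcgr3 to Csf1r was 0.516 ± 0.0636 and 0.715 ± 0.0909, with groups that did not overlap. Both ratios were chosen after the values were seen and carry no test.

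Of the 4 tested IgG receptor genes in the list of 5, 1 was called higher (Fcgr3 itself), with a median log2 fold change of 0.20. The inhibitory receptor Fcgr2b had 4.998, 8.44, 4.64, 6.09 and 5.80 FPKM in WT 1 to 5. In Apoe_KO 1 to 4 it had 6.33, 6.59, 7.27 and 12.3 FPKM. The groups overlapped through WT 2, and the log2 fold change of 0.36 (SE 0.20, limma adjusted p = 0.295) did not pass. The ratio of Fcgr3 to Fcgr2b FPKM was 2.19 ± 0.469 in WT and 2.56 ± 0.484 in Apoe_KO, also with overlap. Fcgr4, another activating receptor, was below the filter at 0.254 ± 0.114 FPKM in WT and 0.922 ± 0.545 FPKM in Apoe_KO, from 3 to 35 reads. It was high in Apoe_KO 1, 3 and 4 and within the WT range in Apoe_KO 2 (exact permutation p = 0.0635). Fcgrt, which recycles IgG and is also expressed by endothelium, was at 112 ± 9.23 and 109 ± 6.43 FPKM (limma adjusted p = 0.823).

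**Figure D2:**
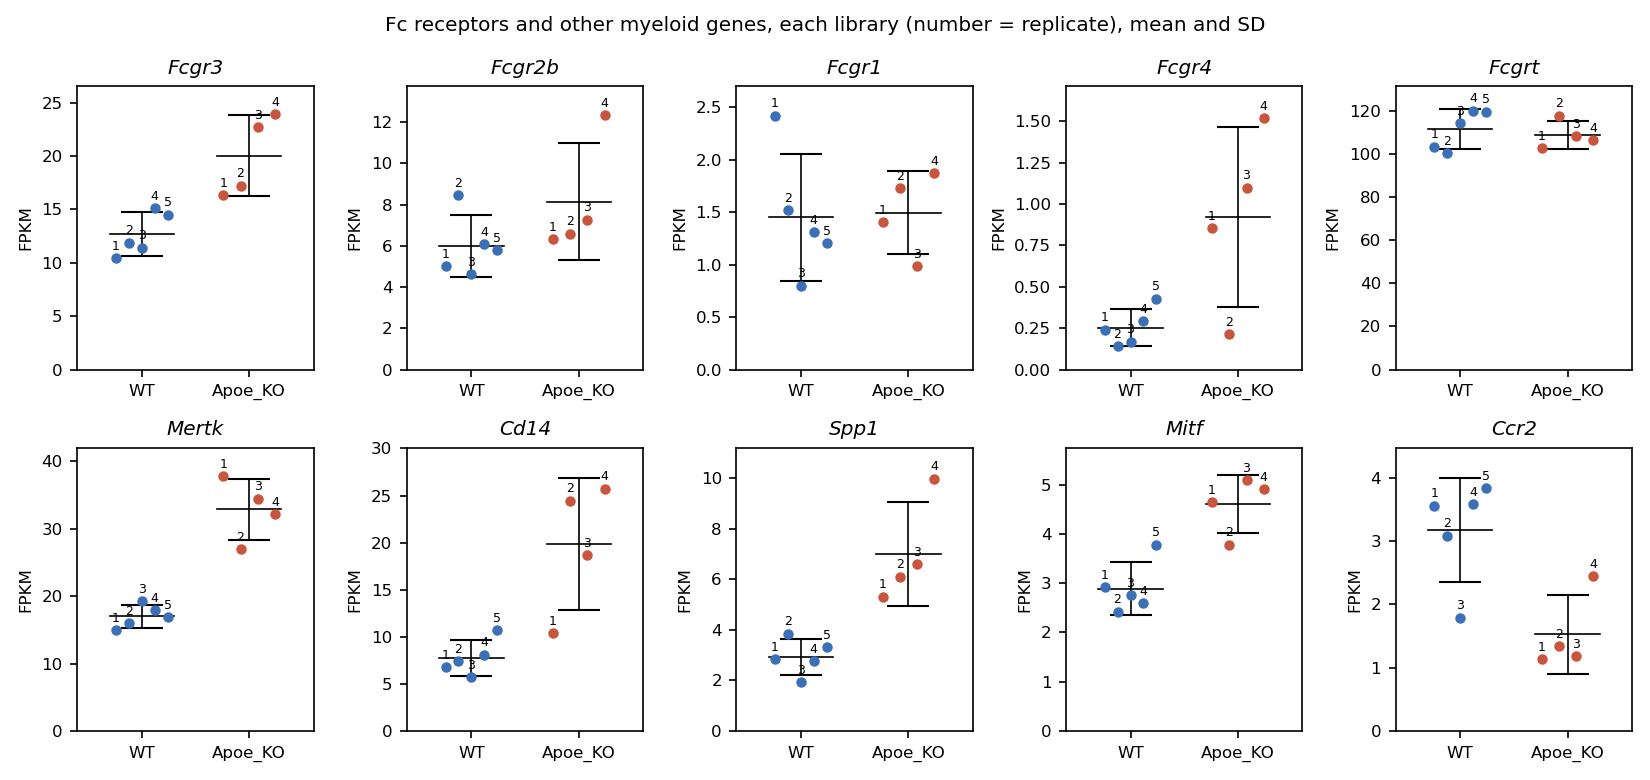
FPKM in each library (points, numbered by replicate) with the mean and SD of 5 WT and 4 Apoe_KO libraries, for the 5 IgG receptor genes (upper row) and 5 other myeloid-list genes (lower row), on linear axes from 0. Fcgr3, Mertk, Spp1 and Mitf have separate groups, while Fcgr2b, Fcgr1, Fcgr4, Fcgrt, Cd14 and Ccr2 overlap. The groups of Mitf all but touch, at 3.782 FPKM in Apoe_KO 2 and 3.781 FPKM in WT 5.

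Tyrobp (chromosome 7, 30413760 to 30417585, plus strand) encodes the other ITAM adaptor, the partner of Trem2 and of many myeloid and NK cell receptors. It lies on the chromosome of Apoe, 10.7 Mb away. Tyrobp was at 22.8, 30.3, 15.995, 24.1 and 25.0 FPKM in WT 1 to 5, and at 19.2, 25.6, 20.6 and 40.3 FPKM in Apoe_KO 1 to 4. The first 3 knockout libraries lay within the WT range. For Tyrobp the log2 fold change was 0.12 (SE 0.23, limma adjusted p = 0.779, 95% interval -0.39 to 0.63), and -0.094 without Apoe_KO 4. The ratio of Tyrobp to Fcer1g FPKM was 1.90 ± 0.298 in WT and 1.84 ± 0.170 in Apoe_KO, with overlapping groups and no test.

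Trem2 (chromosome 17, 48346401 to 48354147, plus strand) encodes a receptor for lipids and lipoproteins that signals through Tyrobp, and had few reads, 26 to 59 per library. Trem2 was at 0.266, 0.523, 0.311, 0.476 and 0.521 FPKM in WT 1 to 5, and at 0.342, 0.643, 0.408 and 0.474 FPKM in Apoe_KO 1 to 4. The ranges largely coincided, and Apoe_KO 4 was not its highest library. The difference on the log2(FPKM + 1) scale was 0.047 (exact permutation p = 0.635). Trem2 was about 0.0178 ± 0.00368 of Tyrobp in WT and 0.0186 ± 0.00552 in Apoe_KO, on the FPKM scale. That scale divides by all annotated exon bases, 4946 for Trem2 and 667 for Tyrobp, so the size of this ratio depends on those lengths.

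The genes that work with both adaptors gave no calls. Of 16 genes of ITAM signalling, 13 were tested, with 0 higher, 0 lower and a median of -0.060. Their summed level was 53.5 to 154 FPKM in WT and 52.5 to 175 FPKM in Apoe_KO, the highest values being those of WT 2 and Apoe_KO 4. Plcg2, a phospholipase shared with B cells, had the smallest p in that list beside Fcer1g (log2 fold change -0.39, limma adjusted p = 0.658). Of 7 genes that restrain such signals, all 7 were tested with 0 calls and a median of 0.078. Among them the lipid phosphatase gene Inpp5d was at 3.27 ± 2.03 and 5.18 ± 3.82 FPKM (limma adjusted p = 0.482). Of 13 listed receptors, most of them but not Clec7a paired with Tyrobp or Fcer1g, only 3 passed the filter and 0 were called. The C-type lectin receptors Clec4n (log2 fold change 0.16) and Clec7a (-0.17) had the smallest p among those, with limma adjusted p of 0.816 and 0.822. In these 3 lists, 0 genes had an unadjusted limma p below 0.05.

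Lyz2 (chromosome 10, 117277331 to 117282321, minus strand), the myeloid lysozyme, was the most abundant marker and had the widest ratio of highest to lowest library, 3.44. Lyz2 was at 184, 383, 167, 228 and 274 FPKM in WT 1 to 5, and at 192, 203, 227 and 574 FPKM in Apoe_KO 1 to 4. The 2 highest values were in Apoe_KO 4 and WT 2, the libraries with high lymphocyte transcripts, and the other knockout libraries were below the WT mean of 247 ± 86.4 FPKM. For Lyz2 the log2 fold change was 0.18 (SE 0.35, limma adjusted p = 0.793, 95% interval -0.61 to 0.97). Without Apoe_KO 4 it was -0.19.

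Lgals3 (chromosome 14, 47367751 to 47386160, plus strand) encodes a galactoside-binding lectin of phagocytes. Lgals3 was at 8.85, 8.96, 9.06, 10.7 and 9.46 FPKM in WT 1 to 5, and at 8.46, 12.2, 10.7 and 16.5 FPKM in Apoe_KO 1 to 4. WT libraries were tight (SD 0.769 FPKM) and the knockout libraries spread to both sides of them (SD 3.40 FPKM). For Lgals3 the log2 fold change was 0.28 (SE 0.15, limma adjusted p = 0.281, 95% interval -0.053 to 0.62). Of the 8 galectin genes, 0 were called higher and 2 lower (median -0.17). Lgals4, known from gut epithelium, fell from 4.55 ± 0.503 to 1.76 ± 0.430 FPKM (limma adjusted p = 0.00150). Lgals12, an adipocyte galectin, fell from 38.2 ± 4.31 to 27.8 ± 4.27 FPKM (limma adjusted p = 0.0435), a call lost in 7 of 9 fits without 1 library (WT 1, 3, 4 or 5, Apoe_KO 1, 3 or 4), at an adjusted p of up to 0.127. Without WT 2 and Apoe_KO 4 together the limma adjusted p was 0.0136 for Lgals4 and 0.0544 for Lgals12.

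Gpnmb (chromosome 6, 49036546 to 49070929, plus strand) encodes a lysosome-associated transmembrane glycoprotein of lipid-laden macrophages. Gpnmb was at 7.15, 5.55, 4.71, 7.97 and 7.30 FPKM in WT 1 to 5, and at 8.07, 6.04, 9.82 and 8.92 FPKM in Apoe_KO 1 to 4. Of the knockout libraries 3 exceeded every WT library and Apoe_KO 2 lay within their range, a pattern in which Apoe_KO 4 was not the highest. For Gpnmb the log2 fold change was 0.29 (SE 0.16, limma adjusted p = 0.295, 95% interval -0.066 to 0.65), with an exact permutation p of 0.143. Of 15 tested genes of the list of lipid-associated macrophage genes (17 genes, median -0.056), 1 was called higher and 1 lower. Spp1, the gene of osteopontin, rose from 2.95 ± 0.714 to 7.00 ± 2.06 FPKM (limma adjusted p = 0.0118). Fabp5, a fatty acid carrier also made by endothelium and fat, fell from 23.8 ± 4.04 to 12.2 ± 0.991 FPKM (limma adjusted p = 0.00242). Both calls held in all 9 fits without 1 library, and without WT 2 and Apoe_KO 4 together (limma adjusted p = 0.0193 for Spp1 and 0.0229 for Fabp5). With the replicate number as a block, Spp1 lost its call (limma adjusted p = 0.0762) and Fabp5 kept it (limma adjusted p = 0.0380).

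**Figure D3:**
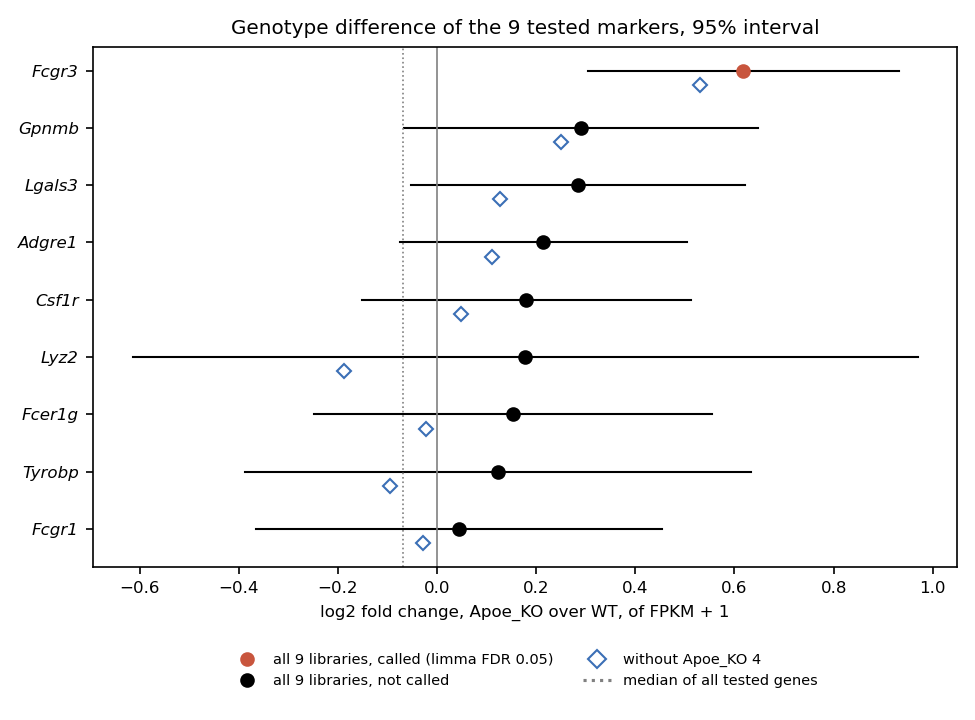
Log2 fold change of FPKM + 1, Apoe_KO over WT, of the 9 tested markers (filled points) with the 95% interval from limma (lines), and the value without Apoe_KO 4 (open diamonds); the dotted line is the median of all tested genes, -0.069. The interval excludes 0 for Fcgr3 only, and the diamonds of Lyz2, Fcer1g, Tyrobp and Fcgr1 are below 0.

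By mean level over the 9 libraries, in FPKM, the order was Lyz2 (270.4), Csf1r (26.3), Tyrobp (24.9), Fcgr3 (15.9), Fcer1g (13.3), Lgals3 (10.5), Adgre1 (9.42), Gpnmb (7.28), Fcgr1 (1.47) and Trem2 (0.440). The ranges over libraries did not overlap between Lyz2 and Csf1r, between Gpnmb and Fcgr1 or between Fcgr1 and Trem2. All other neighbours in that order overlapped in range. Within libraries, Csf1r was above Tyrobp in 6 of 9, Tyrobp above Fcgr3 in 8, Fcgr3 above Fcer1g in 7 and Lgals3 above Adgre1 in 6, so that these neighbours had no fixed order. Fcer1g was above Lgals3 in 9 of 9 libraries and Adgre1 above Gpnmb in 8. The order between genes depends on the annotated exon bases that FPKM divides by, such as 4946 for Trem2 and 2589 for Fcgr1.

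Single libraries set much of the spread. Apoe_KO 4 was the highest of the 9 libraries for 7 markers, above every WT library for 8, and above the WT mean for all 10. Apoe_KO 1, 2 and 3 were above every WT library for 2, 3 and 2 markers. WT 3 was the lowest library for 7 markers and above the WT mean for 0. The shares of all tested genes with these patterns are not given, so the counts do not show a trait particular to the markers. The level in Apoe_KO 4 over the WT mean was 2.32 for Lyz2, 1.89 for Fcgr3, 1.75 for Lgals3, 1.71 for Tyrobp, 1.63 for Fcer1g and 1.496 for Csf1r. It was 1.48 for Adgre1, 1.36 for Gpnmb, 1.29 for Fcgr1 and 1.13 for Trem2. The lymphocyte-rich WT 2 was the highest WT library for Lyz2, Tyrobp, Fcer1g and Trem2, and below the WT mean for Adgre1, Gpnmb, Lgals3 and Fcgr3.

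**Figure D4:**
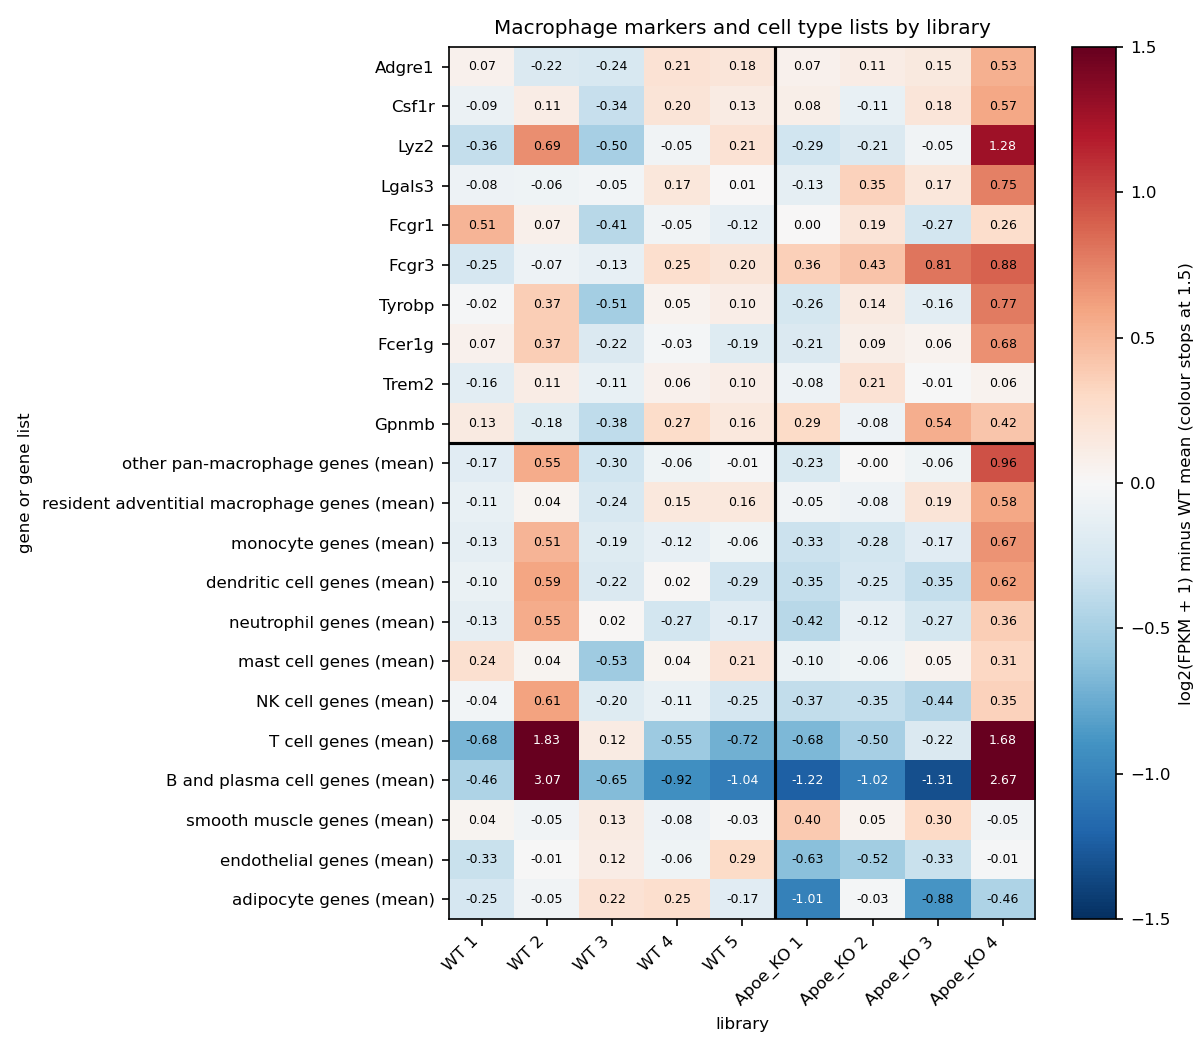
Difference of log2(FPKM + 1) from the WT mean in each library (colour and printed value, colour scale capped at 1.5) for the 10 markers and for the mean of 12 cell type lists. Apoe_KO 4 is above 0 for all 10 markers and WT 3 below 0 for all 10, while the B and plasma cell list is high in WT 2 (3.07) and Apoe_KO 4 (2.67) alone.

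Each marker was also set against 8 other macrophage genes of the same library (Cd68, Aif1, Mpeg1, Laptm5, C1qa, C1qb, C1qc and Ctss), as the difference in log2(FPKM + 1). The mean of those 8 was 4.37 ± 0.302 in WT (SD, n = 5) and 4.57 ± 0.538 in Apoe_KO (SD, n = 4), a difference of 0.20 (exact permutation p = 0.587). It was 5.37 in Apoe_KO 4 and 4.81 in WT 2, the libraries with high lymphocyte transcripts, against 3.98 to 4.42 in the others. Laptm5 was at 34.1 FPKM in WT 2 and 40.6 FPKM in Apoe_KO 4, against 9.22 to 12.1 FPKM in the others. C1qa was at 65.4 and 91.5 FPKM there, against 52.7 to 82.9 FPKM. How far this reference reflects macrophages alone in WT 2 and Apoe_KO 4 was not tested. On this relative scale 0 of 10 markers had an exact permutation p below 0.05, and 5.88% of all tested genes did, 0.568% with a higher value in Apoe_KO. Fcgr3 was 0.42 higher in Apoe_KO (exact permutation p = 0.127), with relative values of -0.063, -0.20, 0.21 and -0.73 in Apoe_KO 1 to 4. In WT 1 to 5 these were -0.73, -1.12, -0.35, -0.41 and -0.45. The first 3 knockout libraries were above all WT libraries and Apoe_KO 4 was level with WT 1. Without Apoe_KO 4 the relative difference of Fcgr3 was 0.60 (exact permutation p = 0.0357). That p is the smallest the remaining libraries allow, and the share of all tested genes that reach it is not given. With all libraries and the 3 C1q genes as the only reference, Fcgr3 was 0.24 higher (exact permutation p = 0.0159). Relative to the 8 reference genes, the other 9 markers differed by -0.16 to 0.091. On the same scale Mertk, described below with separate groups in FPKM, was 0.71 higher (exact permutation p = 0.127). With the C1q reference, Csf1r had -0.19 (exact permutation p = 0.0317) and Trem2 -0.33 (exact permutation p = 0.0476), so that 3 of 10 markers had a p below 0.05. Over all tested genes that share was 60.2%, with 0.755% higher and 59.5% lower in Apoe_KO relative to the C1q genes, and C1qb itself had separate groups, higher in Apoe_KO. The values of Csf1r and Trem2 are therefore no result about these markers. At its low level, the Trem2 value on this scale is mostly that of the reference genes.

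**Figure D5:**
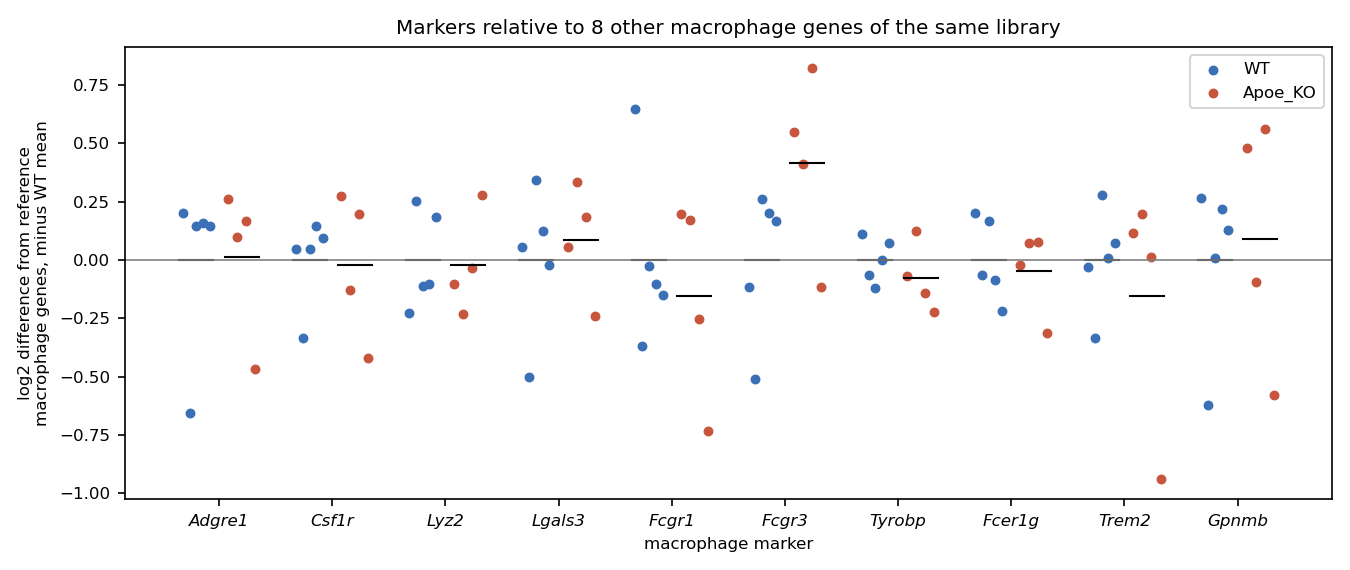
Log2(FPKM + 1) of each marker minus the mean of 8 reference macrophage genes of the same library, centred on the WT mean, for 5 WT and 4 Apoe_KO libraries (points); short lines are group means. For Fcgr3, 3 Apoe_KO points lie above all WT points and Apoe_KO 4 within the WT range, and the mean difference is 0.42.

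The calls in other macrophage lists stand beside 3.43% of all tested genes called higher and 3.92% called lower. Of 20 other pan-macrophage genes, 19 were tested, 2 were called higher and 0 lower, with a median of 0.097. Mertk, a receptor kinase for the uptake of apoptotic cells, rose in Apoe_KO. It had 14.96, 16.05, 19.3, 17.9 and 16.9 FPKM in WT 1 to 5, and 37.8, 27.0, 34.5 and 32.2 FPKM in Apoe_KO 1 to 4. The groups were well apart (log2 fold change 0.91, SE 0.10, limma adjusted p = 0.00150), the call held in all 9 fits without 1 library and without WT 2 and Apoe_KO 4 together (0.0167), and Apoe_KO 4 was not the highest. The co-receptor for lipopolysaccharide Cd14 rose from 7.75 ± 1.89 to 19.8 ± 6.98 FPKM, by 1.20 on the log2 scale (SE 0.25, limma adjusted p = 0.0238). That call was lost in 5 of 9 fits (without WT 1, 2 or 4 or Apoe_KO 3 or 4), at an adjusted p of up to 0.0717, and without WT 2 and Apoe_KO 4 together (0.0936). The 8 reference genes are all among those 20 and gave 0 calls (median 0.20). Their smallest p were those of the complement genes C1qb (0.47, limma adjusted p = 0.0532) and C1qa (0.36, limma adjusted p = 0.0925). Of 12 resident adventitial macrophage genes 1 was called, Lyve1, a hyaluronan receptor shared with lymphatic endothelium, which rose from 25.0 ± 4.15 to 45.1 ± 11.01 FPKM (limma adjusted p = 0.0196, 0.0653 without Apoe_KO 3, and 0.0638 without WT 2 and Apoe_KO 4 together). The 5 phagocyte oxidase genes gave 0 calls (median 0.081), led by Ncf1 (0.36, limma adjusted p = 0.442) and Cyba (0.18, limma adjusted p = 0.585).

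Lists of other leukocytes, some of which express these markers too, gave 0 calls. Of 9 monocyte genes 4 were tested (median 0.23). The chemokine receptor Ccr2 of recruited monocytes was at 3.17 ± 0.820 FPKM in WT and 1.53 ± 0.621 FPKM in Apoe_KO (limma adjusted p = 0.0510), and Fn1 had a log2 fold change of 0.26 (limma adjusted p = 0.167). Of 9 dendritic cell genes 3 were tested (median -0.10), with Clec9a at -0.44 and Zbtb46 at -0.10. Of 10 neutrophil genes only S100a9 was tested (-0.69). Mast cells also express Fcer1g, and of their 9 genes 8 were tested (median 0.077), with Gata2 at -0.44 and Hdc at 0.41. NK cells express Fcgr3 and Tyrobp, and of their 8 genes Nkg7 (-0.65) and Gzma (-0.27) were tested. Summed NK cell genes were 2.85 to 14.3 FPKM in WT and 1.44 to 10.02 FPKM in Apoe_KO, the highest values being those of WT 2 and Apoe_KO 4, and their part in the Fcgr3 value was not tested. The T cell list (2 of 8 tested, Trbc2 and Lck, median 0.18) and the B and plasma cell list (4 of 8 tested, with Ighm and Jchain, median -0.30) had 0 calls each. Of the vessel wall lists, smooth muscle (8 tested) had 1 higher call, Des (0.39), and a median of 0.20, and endothelium (6 tested) 1 lower call, Kdr (-0.58), and a median of -0.41. Des lost its call in 4 of 9 fits without 1 library (WT 1, 4 or 5 or Apoe_KO 1; limma adjusted p up to 0.0641) and Kdr in that without Apoe_KO 3 (0.0648). The adjusted p from limma without WT 2 and Apoe_KO 4 together was 0.0568 for Des and 0.0487 for Kdr. The 6 fibroblast genes had 0 calls and a median of 0.038, with Col1a1 at -0.64 and Pi16 at 0.34. At an unadjusted limma p below 0.05 there were 3 reference genes, 2 monocyte, 1 dendritic cell, 2 mast cell and 2 fibroblast genes, and 0 phagocyte oxidase, neutrophil, NK, T or B and plasma cell genes. The part of these shifts in the marker values was not tested.

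The tested genes whose pattern over the 9 libraries was most like the mean log2(FPKM + 1) of the 10 markers were Gm7729, Ccl8, Ccr1, Lrrc25, Twistnb, Gpr65, Arpc1b, Abcg1, Gnl2 and Pfdn5, with a Pearson r of 0.94 to 0.96. They include a chemokine (Ccl8), a chemokine receptor (Ccr1), a proton-sensing receptor (Gpr65) and a cholesterol exporter (Abcg1). The 9 points share 2 extreme libraries, WT 3 and Apoe_KO 4. Without both, r was 0.94 for Gpr65, 0.90 for Ccl8, 0.88 for Lrrc25, 0.84 for Abcg1 and 0.83 for Gnl2. It was 0.72 for Arpc1b and Pfdn5, 0.62 for Ccr1 and 0.57 for Twistnb, but -0.099 for Gm7729. Among the markers themselves, r with the mean of the other 9 was 0.90 for Csf1r, 0.87 for Tyrobp, 0.63 for Fcgr3 and 0.33 for Fcgr1. Without the same 2 libraries it was 0.22, 0.18, -0.057 and -0.76, so the likeness among most markers rested on those libraries. It remained for Lgals3 (0.80, then 0.49) and Trem2 (0.42, then 0.62). These values are descriptions of 9 libraries and carry no test.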

How the data were processed

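Polyadenylated or rRNA-depleted RNA of aorta was measured in 9 libraries. The labels' protocol describes rRNA depletion and the molecule field names polyA RNA, a conflict that could not be settled. The submitters' processing notes name GRCm38 and limma. Not given in the sources used here are the aligner, the counter, its annotation and any use of strand. A table without a stated unit was deposited. Its values were taken to be FPKM, because the deposited values times exon length (GENCODE mouse release 21) were whole numbers of reads at one depth per library, within 0.1 read for 97.6% to 97.9% of values worth up to 50 reads and 95.2% to 95.5% of all values. Symbols and positions came from that annotation, which held 33240 of the 33293 identifiers. Samples were grouped by genotype from the labels, and no column belonged to another sample.

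Genes reaching 1 FPKM in 4 or more libraries were tested on log2(FPKM + 1), a scale that understates changes of low genes, with limma 3.58.1 in R 4.3.3 (trend and robust empirical Bayes, genotype as the only term), adjusted by Benjamini and Hochberg over 13383 genes. The design named a test for counts and limma for normalized values, and limma was taken for this unit. Exact permutation tests were two-sided and unadjusted, over 126 splits with all 9 libraries and fewer where libraries were left out. The steps were tested on simulated data.

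The markers, lists and tests were chosen with earlier results of these data known. Genes named were the markers, Apoe, up to 4 called genes of each list by smallest p (or the 2 of smallest p where none was called), and the 10 genes most like the markers' mean. Csf1, Il34, Fcgr4 and Fcgrt were named outside that rule, after their values were seen. Alternatives were the replicate number as a block, each library left out in turn, WT 2 and Apoe_KO 4 left out together, another pseudocount (0.1), filter (none, 10 FPKM), scaling, library weights, voom on the recovered reads and the C1q reference. Promoter windows are from RefSeq (GRCm38.p6), matched by symbol for 7 markers, with Csf1r (chromosome 18) left out and no usable entry for Adgre1 and Tyrobp. Python 3.11.15 with pandas 2.3.3 was used.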

Additional observations from a re-analysis of the deposited data

Results flagged for a closer look

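In 48 genes, the markers and the genes named by list, the highest or lowest library of each genotype was compared with the rest of its group by Dixon's criterion. It marked 22 of 96 groups. The nominal rate of about 1 in 20 holds for independent groups of normal values. Here the same libraries recur over related genes, so the count cannot be read as an excess over chance. The share over all tested genes is not given. Among the markers it marked 2 of 20 groups, both through Apoe_KO 4. Adgre1 was at 12.9 FPKM there against 9.12 to 9.69 FPKM in the other knockout libraries, and Lyz2 at 573.5 FPKM against 192 to 227 FPKM.

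Among other myeloid and signalling genes, Apoe_KO 4 stood far above its group for Fcgr2b (12.3 FPKM), Inpp5d (10.9), Plcg2 (12.1), Clec4n (5.60), Ncf1 (8.70), Ccr2 (2.45) and Gzma (2.27). WT 2 did so for Plcg2 (12.8 FPKM), Inpp5d (6.86), S100a9 (8.11) and Nkg7 (5.28), and WT 5 for Hdc (1.97). The lymphocyte genes were marked in both WT 2 and Apoe_KO 4. Trbc2 was at 24.3 and 23.9 FPKM there, Lck at 10.9 and 9.04, Ighm at 251.9 and 226 and Jchain at 81.4 and 20.6.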

How the results depend on the processing

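Fcgr3 was the only marker called, with all 9 libraries and under voom, the replicate block, library weights, median centring, quantile scaling, the filter of 10 FPKM and the pseudocount of 0.1 (limma adjusted p 0.0189 to 0.0425). With no filter, 0 markers were called (Fcgr3 adjusted p = 0.0810), and with WT 2 and Apoe_KO 4 left out together 0 were. Leaving out 1 library gave 0 to 1 called marker (Fcgr3 adjusted p 0.0283 to 0.0948).

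Over all genes, 983 were called (459 higher, 524 lower). Whether the replicate numbers pair the samples is not known. Deviations of same-numbered libraries from their group means had an r of 0.26, -0.27, -0.13 and -0.22. So few pairs cannot decide whether a number marks a shared batch. With the number as a block 183 were called, 121 higher and 62 lower, and 6 non-marker genes of the lists were called (13 without the block). No filter gave 445 (247 higher, 198 lower; 4 in the lists), the filter of 10 FPKM 582 (220 lower), median centring 899 (630 higher, 269 lower, or 70.1% higher against 46.7%), quantile normalization 725 (240 lower, 66.9% higher), and library weights 1757 (702 and 1055; 22 in the lists). Without WT 2 and Apoe_KO 4 there were 367 (202 and 165; 7 in the lists). Leaving out 1 library gave 389 to 1258 calls, 210 to 580 higher and 179 to 678 lower, with 6 to 19 in the lists.

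Signs turned only in markers that were not called. With library weights the log2 fold change was -0.031 for Fcgr1 and -0.042 for Tyrobp. Without WT 2 and Apoe_KO 4 it was -0.015 for Lyz2, -0.0092 for Fcgr1 and -0.00083 for Tyrobp. With the libraries left there, no gene can reach an exact permutation p below 0.05, so that test shows nothing about the markers. Leaving out 1 library gave -0.19 to 0.35 for Lyz2, -0.059 to 0.17 for Fcgr1, -0.094 to 0.25 for Tyrobp, -0.022 to 0.28 for Fcer1g and -0.0087 to 0.089 for Trem2. In those settings 1 to 2 markers had an exact permutation p below 0.05. The share of all tested genes there is not given, and with all libraries it was 22.9%.

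Relative to the reference genes, 0 markers had a permutation p below 0.05 (5.88% of all tested genes did), and 3 with the C1q reference (60.2%). With 1 library left out 0 to 1 marker had, and the share of all tested genes there is not given. With the C1q reference Adgre1 was at -0.16, Lgals3 at -0.091 and Gpnmb at -0.084. Within pairs of the replicate block, Csf1r was at 0.0048 and Lyz2 at 0.024. Without WT 2 and Apoe_KO 4, Csf1r was at 0.031, Fcer1g at 0.027 and Trem2 at 0.025. With 1 library left out the relative values were -0.15 to 0.18 for Adgre1, -0.12 to 0.11 for Csf1r, -0.12 to 0.047 for Lyz2, -0.041 to 0.19 for Lgals3, -0.27 to 0.038 for Fcgr1, -0.10 to 0.043 for Fcer1g, -0.27 to 0.11 for Trem2 and -0.065 to 0.31 for Gpnmb. The cause of these shifts was not tested. Depth limited Trem2 (26 to 59 reads) and Fcgr4 (3 to 35 reads).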
